A study of Homo sapiens with 20 samples.

Results

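The pro-apoptotic genes of the BCL2 family were followed by RNA-seq after nutlin-3 treatment of NGP, a line of human neuroblastoma cells. The set held 10 genes, *BAX*, *BAK1*, *BBC3*, *PMAIP1*, *BID*, *BCL2L11*, *BAD*, *BIK*, *HRK* and *BMF*, out of 27697 mRNA and lncRNA genes tested. They were chosen by gene symbol for what their proteins are known to do, not by their values, although earlier results of these data were known. All 10 passed the filter of at least 1 count in each condition. The study compared 10 samples given nutlin-3 as an 8 µM racemic mixture with 10 samples given ethanol as the vehicle. All 20 samples came from the same line grown in 6-well flasks, and the time of exposure is not given in the sources used here. Estimated read pairs per sample ranged from 14455477 to 19532971 in the vehicle group and from 15078052 to 17442896 in the nutlin group, and levels are given as read pairs scaled to library size (CPM). All values are on RNA of a single cell line, and no protein was measured. In such bulk RNA, a change per cell and a change in the share of cells that express a gene cannot be told apart.

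Nutlin-3 binds MDM2, the ubiquitin ligase that holds p53 low, and so leaves more p53 to act as a transcription factor. In the mitochondrial path to cell death, BAX and BAK form pores in the outer mitochondrial membrane and release cytochrome c. BCL2, MCL1 and their relatives hold these pore formers back. The BH3-only proteins are the sensors upstream: BIM, BID and PUMA can engage the pore formers directly as well as the inhibitors, whereas NOXA, BAD, BIK, HRK and BMF act mainly by occupying inhibitors. PUMA (gene *BBC3*), NOXA (gene *PMAIP1*) and BAX are well known as products of p53 target genes. In developing and malignant nerve cells of the sympathetic lineage these proteins set how readily the cell dies.

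The labelled cell type was checked on its markers. The 10 neuroblastoma marker genes, among them *TH* and *CHGA*, were all detected and summed to 2912 to 3346 TPM, a level scaled by transcript length, in vehicle and 3489 to 4479 TPM in nutlin samples. The 7 markers of other cell types, such as *PTPRC* for blood cells, *EPCAM* for epithelium and *PECAM1* for endothelium, summed to at most 1.08 TPM in vehicle and 3.42 TPM in nutlin samples. Of the 7, 3 did not reach 1 count in each condition. *EPCAM* and *PECAM1* were higher after nutlin, with an LFC (log2 fold change, nutlin over vehicle) of 1.70 and 1.54, although no marker of the 7 had a median above 1.36 TPM in nutlin samples. The response itself was seen in *MDM2*, with an LFC of 4.51, and in *CDKN1A*, the gene of the cell cycle inhibitor p21, with an LFC of 5.68.

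Because *BBC3*, *PMAIP1* and *BAX* are known p53 targets, the 250 bases before the start of each gene's canonical transcript were searched for the p53 response element, which consists of a pair of 10-base units. The reference was GRCh38 with GENCODE 44 starts, and 9 of the 10 genes were searched. BIK was not searched, for want of a RefSeq promoter entry. The motif reads the same on both strands, so that a scan of a single strand covers both. With 3 mismatches allowed in a pair of units at most 13 bases apart, 1443 of 14248 promoters held a match (10.1%), and 3 of the 9 genes did. The allowance of 3 was chosen after the sequences had been read. With 2 allowed, 317 promoters (2.22%) and, of the 9 genes, *BAK1* alone held a match. A unit without mismatch was found in 690 promoters (4.84%) and, of the 9 genes, in that of *BAK1*. The matching stretches are given 5′ to 3′ on the strand of the gene, with the units in capitals and 30 bases on each side.
BBC3, chr19:47231290-47231369, minus strand: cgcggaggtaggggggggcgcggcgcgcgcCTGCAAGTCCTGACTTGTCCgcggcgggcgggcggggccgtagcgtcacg
PMAIP1, chr18:59899781-59899860, plus strand: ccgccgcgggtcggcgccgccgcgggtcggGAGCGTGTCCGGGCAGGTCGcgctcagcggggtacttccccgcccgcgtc
BAK1, chr6:33580298-33580379, minus strand: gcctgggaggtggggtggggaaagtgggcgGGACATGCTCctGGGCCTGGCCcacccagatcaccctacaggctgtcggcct
The *BBC3* match lay 140 to 121 bases before the start of BBC3-203, inside an intron of the longer transcripts of that gene. The *PMAIP1* match lay 185 to 166 bases before the start of PMAIP1-202, just outside the annotated gene. In both, the units abut and hold 3 mismatches. The *BAK1* match lay 73 to 52 bases before the start of BAK1-201, within the span of the pseudogene *GGNBP1* on the other strand, with 2 bases between the units and 2 mismatches, beside an overlapping second match. A match is a likeness of letters, and binding was not measured. For the other 6 genes these letters are not in this window, from which nothing follows on binding elsewhere.

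Of the 10 genes, 6 were significantly differentially expressed (SDE) with a higher level after nutlin (*BBC3*, *PMAIP1*, *BAX*, *BAK1*, *BIK* and *HRK*), 3 were SDE with a lower level (*BID*, *BCL2L11* and *BAD*), and *BMF* was not called. SDE means an adjusted p below 0.05 in the edgeR quasi-likelihood test, at 5% FDR over all genes tested. These shares stand against a broad response, since 32.3% of all genes tested were called higher, 26.5% lower and 58.8% in either direction. All 10 are mRNAs, and of the 17351 mRNAs tested 32.4% were called higher, 38.5% lower and 70.9% in either direction. In 5 of the 10 genes (*BBC3*, *PMAIP1*, *BAX*, *BAK1* and *BAD*) no nutlin sample fell within the range of the vehicle samples in CPM, against 28.8% of all genes and 40.2% of mRNAs tested. Their median LFC was 0.72, beside 0.19 for all genes tested and -0.01 for the mRNAs.

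**Figure D1:**
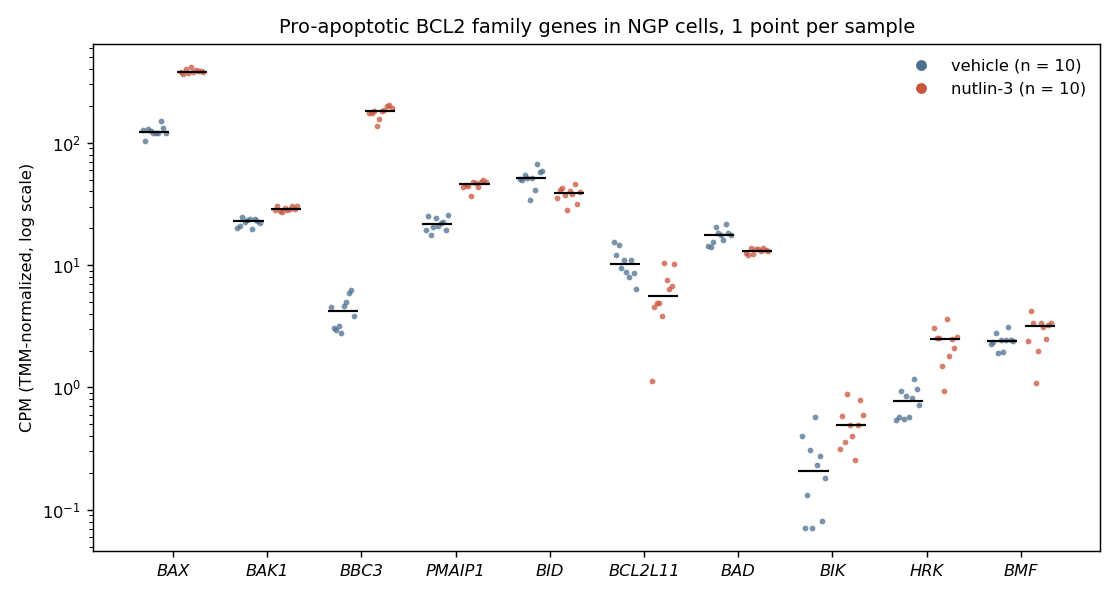
CPM of the 10 pro-apoptotic genes in every sample on a log axis, with vehicle samples in blue, nutlin-3 samples in red and a black line at each group's median. *BBC3* moved from 2.77 to 6.26 CPM up to 138 to 205 CPM, *BAX*, *BAK1* and *PMAIP1* formed separate groups as well, and *BAD* lay lower in every nutlin sample. CPM is not divided by transcript length, so heights are compared within a gene.

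*BAX* encodes the pore former that moves from the cytosol to the mitochondrion. Its lowest, median and highest values were 104, 122 and 149 CPM in vehicle and 368, 382 and 416 CPM in nutlin samples. Every nutlin sample lay well above the highest vehicle sample. The LFC was 1.63 (SE 0.04; 3.10-fold), with an adjusted p of 1.13e-23. Nutlin samples were also closely alike, with a coefficient of variation (CV) of 3.68%, against 9.29% for vehicle.

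*BAK1* encodes the pore former that resides in the mitochondrial membrane. Vehicle samples held 19.9, 22.7 and 24.7 CPM (lowest, median, highest) and nutlin samples 27.2, 28.8 and 30.6 CPM. The groups did not overlap, although the step between them was small. The LFC was 0.37 (SE 0.04; 1.29-fold), with an adjusted p of 1.22e-08. The processed pseudogenes *BAK1P1* and *BAK1P2*, which resemble its mRNA, had a median estimated count of 0 and at most 3.19 in any sample, so that few reads were placed there.

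*BBC3* encodes PUMA, which binds all the main inhibitors. It showed the largest change of the 10 genes. In vehicle samples 3, 4, 5 and 6 it stood at 4.56, 3.05, 2.92 and 3.18 CPM, and in vehicle samples 7 to 12 at 2.77, 4.61, 4.96, 5.92, 6.26 and 3.85 CPM. Nutlin samples 1, 2, 3 and 4 held 176, 176, 182 and 138 CPM, and samples 6 to 11 held 155, 181, 185, 199, 205 and 192 CPM. Every nutlin sample thus lay far above every vehicle sample. The LFC was 5.41 (SE 0.10; 42.7-fold), with an adjusted p of 3.36e-27. In estimated counts the step ran from 39 to 86 read pairs per vehicle sample up to 2022 to 3218 per nutlin sample. The microRNA genes *MIR3190* and *MIR3191* lie within *BBC3* in the annotation.

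*PMAIP1* encodes NOXA, a small protein of 54 coding codons that occupies MCL1. It ranged over 17.5, 21.5 and 25.6 CPM in vehicle and 36.5, 45.9 and 49.5 CPM in nutlin samples. The lowest nutlin value belonged to replicate 4, while the other nutlin samples held 43.3 CPM or more. With an LFC of 1.06 (SE 0.06; 2.09-fold), it was SDE at an adjusted p of 1.94e-15.

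*BID* encodes the BH3-only protein that caspase 8 cleaves and so links death receptors to the mitochondrion. Its values were 34.1, 51.6 and 66.9 CPM in vehicle and 28.1, 38.9 and 46.2 CPM in nutlin samples. The ranges overlapped, but all 10 nutlin samples lay below the vehicle median. It fell by 0.44 on the log2 scale (SE 0.09; 1.35-fold lower), with an adjusted p of 1.05e-04.

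*BCL2L11* encodes BIM, which is kept low by survival signals. Vehicle samples held 6.38, 10.2 and 15.3 CPM and nutlin samples 1.13, 5.61 and 10.4 CPM. Nutlin replicate 1 gave the lowest value with only 17.6 estimated read pairs, and 9 of 10 nutlin samples lay below the vehicle median. The LFC was -0.81 (SE 0.21; 1.75-fold lower), with an adjusted p of 0.00163. Without nutlin replicate 1 the LFC was -0.67, and the gene was still called. In TPM, which weighs each transcript by its length, the medians were closer, at 4.54 in vehicle and 3.80 in nutlin samples, and the ranges of 2.82 to 6.00 and 2.54 to 6.67 TPM overlapped almost wholly. The lncRNA gene *MIR4435-2HG* runs across *BCL2L11* on the other strand and was lower as well, from a median of 5.31 to 2.30 CPM, with an LFC of -1.22 and an adjusted p of 4.99e-09. The strand setting of the quantification is not given in the sources used here, and the part of the overlap in the *BCL2L11* result was not tested.

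*BAD* encodes the BH3-only protein that survival kinases switch off through 14-3-3 proteins. Its values were 14.1, 17.6 and 21.5 CPM in vehicle and 12.04, 13.1 and 13.9 CPM in nutlin samples. All nutlin samples thus lay below the lowest vehicle sample. It fell by 0.40 on the log2 scale (SE 0.07; 1.32-fold lower), with an adjusted p of 6.23e-06. *GPR137*, which overlaps it on the other strand, had a median of 12.6 CPM in vehicle and 12.3 CPM in nutlin samples and was not called (adjusted p = 0.0800).

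*HRK*, *BIK* and *BMF* were the least abundant genes of the family set. *HRK*, known from neurons deprived of growth factor, held 0.537, 0.770 and 1.17 CPM in vehicle and 0.925, 2.49 and 3.64 CPM in nutlin samples. Only the lowest nutlin sample, replicate 6, reached into the vehicle range. Its LFC was 1.59 (SE 0.20; 3.003-fold), with an adjusted p of 7.21e-08, from 8.07 to 17.1 estimated read pairs per vehicle sample and 15.4 to 54.5 per nutlin sample.

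*BIK*, whose product sits mainly at the endoplasmic reticulum, held 0.0710, 0.207 and 0.577 CPM in vehicle and 0.257, 0.494 and 0.889 CPM in nutlin samples. These were 1 to 10 read pairs per vehicle sample and 4 to 13 per nutlin sample, and the ranges overlapped. The LFC was 1.07 (SE 0.33; 2.10-fold), with an adjusted p of 0.00566.

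*BMF*, whose product is held at the cytoskeleton until stress releases it, held 1.90, 2.41 and 3.10 CPM in vehicle and 1.09, 3.18 and 4.25 CPM in nutlin samples. Of the nutlin samples 7 lay above the vehicle median and 3 below it, and their CV of 31.2% compared with 14.5% for vehicle. The LFC of 0.25 (SE 0.16) did not pass the test (adjusted p = 0.177). Nutlin replicate 4, with 16 read pairs, gave the lowest value, and without it the LFC was 0.36 and the adjusted p 0.0196. In TPM the conditions lay further apart, with medians of 0.63 in vehicle and 1.41 in nutlin samples. The ranges were 0.42 to 0.87 and 0.49 to 2.60 TPM, where only nutlin replicate 4 reached into the vehicle range. The difference in TPM was not tested, so the result for *BMF* holds for counts only.

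Compared per length, in TPM, the 10 genes changed order between the conditions. In vehicle samples *BAX* stood first with a median of 203 TPM, followed by *BID* (44.7), *BAD* (28.5), *PMAIP1* (15.8), *BAK1* (11.2), *BCL2L11* (4.54), *BBC3* (3.21), *BMF* (0.63), *BIK* (0.28) and *HRK* (0.17). The sample ranges of neighbours overlapped for *PMAIP1* and *BAK1*, for *BCL2L11* and *BBC3*, and among *BMF*, *BIK* and *HRK*, so that these were not set apart. In nutlin samples *BAX* was again first with 616 TPM, and *BBC3* came next with 133 TPM. They were followed by *PMAIP1* (37.3), *BID* (32.8), *BAD* (23.6), *BAK1* (14.8), *BCL2L11* (3.80), *BMF* (1.41), *BIK* (0.60) and *HRK* (0.55), where *PMAIP1*, *BID* and *BAD* overlapped with their neighbours, as did the last 4. Set against all mRNAs tested, *BBC3* moved from the 41.9th to the 96.2nd percentile of mean TPM, and *PMAIP1* from the 65.7th to the 83.8th.

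**Figure D2:**
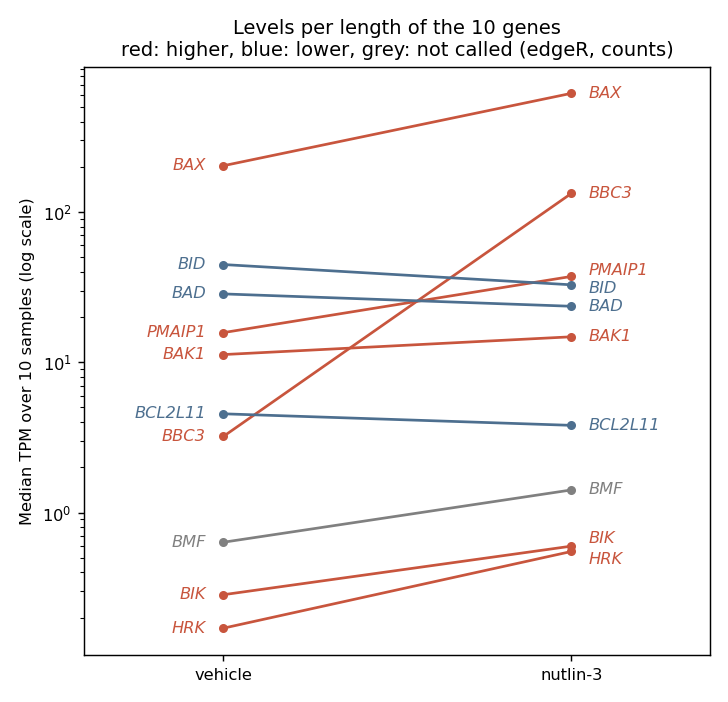
Median TPM over 10 vehicle and 10 nutlin-3 samples on a log axis, with each gene joined by a line that is red for genes called higher, blue for genes called lower and grey for *BMF*. *BBC3* crossed *BCL2L11*, *BAK1*, *PMAIP1*, *BAD* and *BID* on its way from 3.21 to 133 TPM.

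Summed over the 10 genes, the level went from a median of 313 TPM (272 to 358) in vehicle to 867 TPM (805 to 896) in nutlin samples. *BAX* made up most of it in both conditions, with a median of 66.2% and 71.6%. The share of *BBC3* went from 0.963% to 15.4%, whereas that of *BID* went from 14.2% to 3.90% and that of *BAD* from 8.88% to 2.76%. *PMAIP1* held 4.66% and 4.28%.

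The deposited values are per transcript, which shows which forms of each gene carried these counts. Transcripts with at least 10% of their gene's counts in either condition numbered 24, of which 13 were called higher and 4 lower in the fit over all 132618 transcripts tested. Of all transcripts tested, 12.1% were called higher and 10.4% lower. That set includes forms with any share of their gene, whereas the 24 are major forms, so the percentages are not like for like. The quantification splits reads among transcripts that share most of their sequence, and the error of that split is not in the deposited values. Within-gene shares were compared for 23 of the 24 transcripts by a two-sided permutation test with 100000 resamples, adjusted over these 23, and the 24th was the only transcript of *BIK*. Of the 23 shares, 4 rose and 6 fell. *BAK1* has only 2 transcripts, so its rise and its fall are the same shift, although they enter the adjustment as separate tests. Among those that rose, BAX-206 and BAD-206 reached the minimum of 10% in nutlin samples only. Their rise is thus not independent of the rule that named them. Shares were not compared over all genes, so whether such shifts are particular to these genes was not tested.

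In *BAX* the coding transcript BAX-201 went from a mean share of 29.1% ± 1.84 (SD, n = 10) to 21.5% ± 1.52, and the retained-intron transcript BAX-206 from 7.93% ± 0.98 to 14.6% ± 0.99. Neither pair of ranges overlapped, and both permutation tests gave an adjusted p of 2.30e-04. BAX-206 was named only for its share in nutlin samples, so its test is not free of that choice. BAX-210, also a retained-intron form, rose from 11.6% to 15.5% (permutation test, adjusted p = 9.20e-04). The most abundant coding form, BAX-202, held 36.1% and 32.5% (permutation test, adjusted p = 0.0700). Over its 4 annotated retained-intron forms, a sum formed after the shares had been seen and not tested, *BAX* held 17.6 to 28.1% in vehicle and 35.6 to 38.5% in nutlin samples. In counts BAX-201, BAX-202, BAX-206 and BAX-210 were all called higher, with LFC values of 1.19, 1.47, 2.51 and 2.05.

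The forms of *BAK1* changed order. BAK1-201 fell from a share of 59.4% ± 10.6 to 42.4% ± 9.27 and BAK1-202 rose from 40.6% to 57.6%, which is the same test seen from either side (permutation test, adjusted p = 0.00302). In the fit on counts BAK1-202 was called higher with an LFC of 0.87 (SE 0.15), whereas BAK1-201 had an LFC of -0.13 and was not called (adjusted p = 0.593). The gene's small increase was therefore assigned to BAK1-202.

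In *PMAIP1* the canonical form PMAIP1-202 fell from 66.4% ± 7.55 to 54.4% ± 5.34 of the gene (permutation test, adjusted p = 0.00147), although its counts were higher, with an LFC of 0.77. PMAIP1-201 had an LFC of 1.24 and shares of 32.0% and 36.7% (permutation test, adjusted p = 0.199). The third transcript, a retained-intron form under the minimum of 10%, held 0.542 to 4.21% in vehicle and 5.09 to 10.8% in nutlin samples and was not tested.

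BCL2L11-204 was the main form of *BCL2L11*. Its share was 85.4, 91.9 and 95.2% (lowest, median, highest) in vehicle and 6.14, 80.4 and 93.7% in nutlin samples. The mean fell by 17.4 percentage points (permutation test, adjusted p = 0.00147). Nutlin replicate 1 held the 6.14%, and without it the mean fell by 9.84 points (permutation test, adjusted p = 0.00274). In the fit on counts the LFC of this transcript was -0.99 (SE 0.37), which did not pass over all transcripts (adjusted p = 0.0637).

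For *BAD*, the coding form BAD-201 went from 76.4% to 67.7% and the retained-intron form BAD-206 from 7.01% to 10.8%, with adjusted p values of 0.0312 and 0.00678 in the permutation test. BAD-206 too was named only for its share in nutlin samples. For *BID*, BID-203 went from 14.1% to 10.1% (permutation test, adjusted p = 0.0388). The shares of BAD-201 and BID-203 depended on single samples: leaving out each sample in turn, they were called in 13 and 9 of 20 refits, against 20 of 20 for the other 8 shares called. The shares of BID-201, BID-208 and BID-211 did not pass, although BID-201 and BID-208 were lower in counts, with LFC values of -0.51 and -0.49.

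All 4 named transcripts of *BBC3* were called higher in counts, with LFC values of 4.49 to 5.63, and none of their shares passed the test. The canonical BBC3-203 held 48.8% ± 29.96 of the gene in vehicle and 53.5% ± 5.24 in nutlin samples. The vehicle shares rest on 39 to 86 read pairs per sample for the whole gene. HRK-201 held a mean of 96.6% and 97.0% of *HRK*. For *BMF*, the split between BMF-201 and BMF-202 varied widely from sample to sample, with vehicle shares of BMF-202 from 6.60 to 100%.

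**Figure D3:**
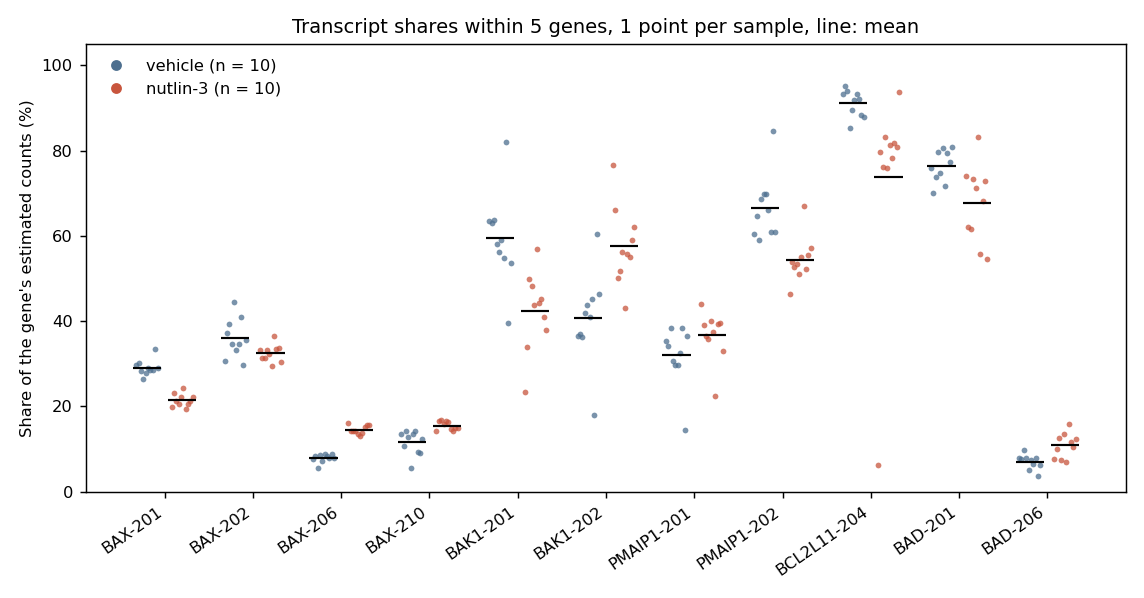
Share of a gene's estimated counts on each of 11 transcripts of *BAX*, *BAK1*, *PMAIP1*, *BCL2L11* and *BAD*, in percent, for every vehicle (blue) and nutlin-3 (red) sample with a line at the mean. BAX-206 forms separate groups (5.59 to 8.91% and 13.04 to 15.99%), and a single nutlin-3 sample of BCL2L11-204 lies at 6.14%.

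Of the 6 anti-apoptotic genes, the inhibitors of the family, 0 were called higher, 3 lower and 3 were not called, with a median LFC of -0.12. The share called lower was near the 38.5% of all mRNAs. *BCL2*, the founding inhibitor, had median levels of 62.0 CPM in vehicle and 43.3 CPM in nutlin samples, without overlap, and an LFC of -0.49 (adjusted p = 1.10e-09). *MCL1*, which restrains BAK and is bound by NOXA, had an LFC of -0.20, and *BCL2L2* had -0.15. *BCL2L1*, the gene of BCL-XL, had an LFC of -0.08 (SE 0.04) and was not called (adjusted p = 0.0981). *BCL2A1* and *BCL2L10* had medians of 0.00 and 0.06 to 0.07 CPM and were not called.

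**Figure D4:**
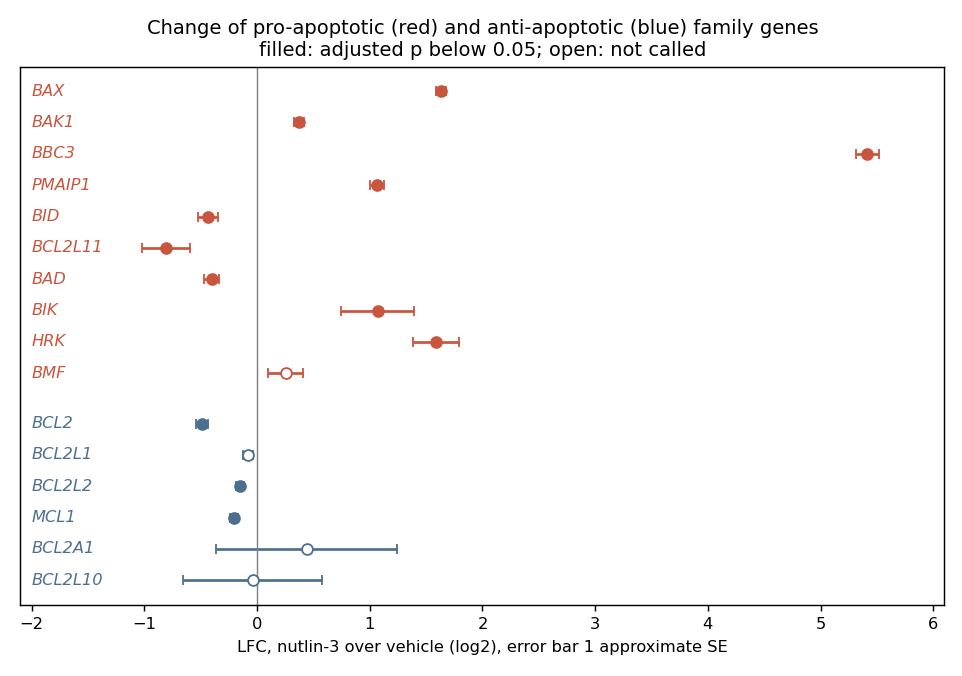
LFC (nutlin-3 over vehicle, log2) with 1 approximate SE on each side for the 10 pro-apoptotic genes in red and the 6 anti-apoptotic genes in blue, where filled points were called at an adjusted p below 0.05. *BBC3* stands at 5.41, and the called inhibitors *BCL2*, *BCL2L2* and *MCL1* lie between -0.49 and -0.15.

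The level of a pro-apoptotic gene relative to an inhibitor known to bind its product was given within samples, as the log2 ratio of estimated counts, which needs no scaling between libraries. These ratios rest on the same counts as the calls above and are not independent of them, and no pair was formed for *BID*, *BAD*, *BIK*, *HRK* or *BMF*. In 4 of 5 pairs every nutlin sample lay above every vehicle sample. The pro-apoptotic genes of these 4 pairs were all called higher above. Of single mRNAs tested, 40.2% were without overlap, and ratios of other gene pairs were not formed, so a share for ratios is not known. The ratio of *BBC3* to *BCL2L1* went from -3.18 ± 0.38 (SD, n = 10) to 2.35 ± 0.21, a difference of 5.53 (46.2-fold). *BAX* to *BCL2* went from 0.99 ± 0.24 to 3.11 ± 0.13, a 4.36-fold gain. *PMAIP1* to *MCL1* went from -4.34 ± 0.15 to -3.07 ± 0.09, a 2.41-fold gain, and *BAK1* to *MCL1* from -4.29 ± 0.14 to -3.71 ± 0.08, a 1.49-fold gain. Each gave p = 2e-05 in a two-sided permutation test, the smallest that 100000 resamples can give, and 2.5e-05 after adjustment over the 5 pairs. *BCL2L11* to *BCL2* went from -2.61 ± 0.40 to -3.08 ± 0.97, and this difference of -0.47 did not pass (permutation test, p = 0.171, adjusted p = 0.171). Its lowest value of -5.31 came from nutlin replicate 1, and the difference was -0.22 without it. Ratios of RNA between genes are not ratios of protein.

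**Figure D5:**
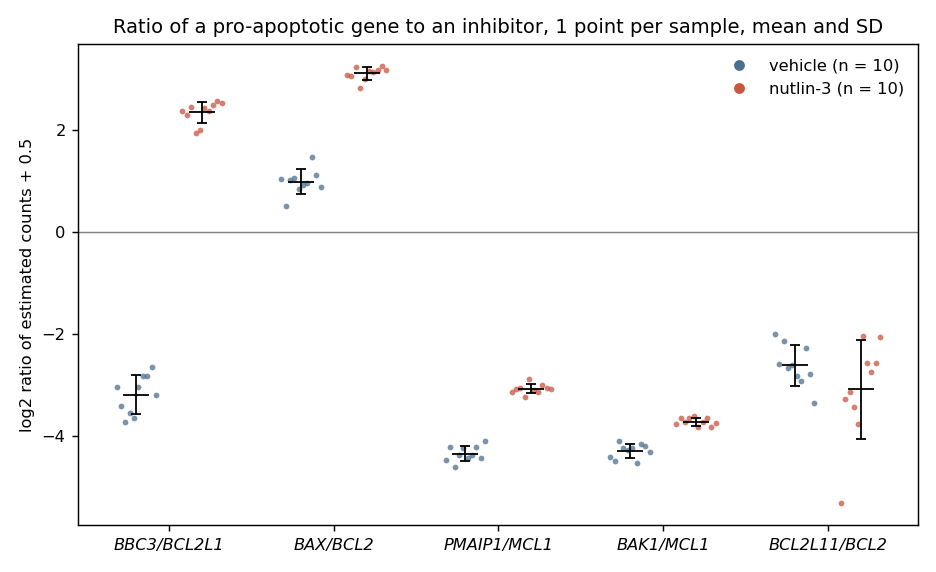
Log2 ratio of estimated counts (each plus 0.5) of a pro-apoptotic gene to an inhibitor in every vehicle (blue) and nutlin-3 (red) sample, with the mean and SD in black. The groups are apart for *BBC3*/*BCL2L1*, *BAX*/*BCL2*, *PMAIP1*/*MCL1* and *BAK1*/*MCL1*, and overlap for *BCL2L11*/*BCL2*, where a nutlin-3 sample lies at -5.31.

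Of the 8 other relatives of BCL2, 3 were called higher, 4 lower and *BCL2L15* was not called, near the shares over all mRNAs (32.4% higher and 38.5% lower). *BCL2L14* had the largest change with an LFC of 1.33, at 0.270 and 0.878 CPM, followed by *BCL2L12* with -0.70. *BNIP3*, a BH3-like protein of mitophagy, had an LFC of -0.62 without overlap between the groups. *BOK*, a pore-forming relative of BAX and BAK, was higher with an LFC of 0.51, at 3.44 and 4.81 CPM.

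Among 13 genes acting in or after pore formation, 2 were called higher, 9 lower and 2 were not called, with a median LFC of -0.50, beside 32.4% higher and 38.5% lower over all mRNAs. The largest change was that of *ENDOG*, a mitochondrial nuclease, with an LFC of -2.47. *CYCS*, the gene of the cytochrome c that the pores release, fell by 0.73 on the log2 scale, and *APAF1*, which cytochrome c activates, fell by 0.50. *CASP9*, the initiator caspase that APAF1 recruits, was higher, with an LFC of 0.52. *VDAC2*, which anchors BAK in the membrane, had an LFC of -0.45. *XIAP* and *DIABLO* were not called.

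Of 9 partners that hold BH3-only proteins away from the mitochondrion, 1 was called higher and 8 lower, with a median LFC of -0.64, against 38.5% of mRNAs called lower. *SFN*, 14-3-3 sigma, had an LFC of 2.08 but a median of only 0.364 CPM in nutlin samples. The 6 other 14-3-3 genes, whose products bind BAD, had LFC values from -1.21 (*YWHAQ*) to -0.47 (*YWHAG*), each without overlap between the groups. Over all mRNAs tested, 40.2% were without overlap. *DYNLL1*, the dynein light chain that binds BIM, had an LFC of -1.02, and *DYNLL2*, which binds BMF, had -0.17.

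Of 9 transcription factors known to act on BH3-only genes, 7 were called higher and 2 lower, with a median LFC of 1.62, against 32.4% and 38.5% of mRNAs. *E2F1* fell by 3.15 on the log2 scale, from a median of 202 to 22.1 CPM, and *MYC* had an LFC of 2.61, at 0.623 and 4.24 CPM. *DDIT3*, *FOXO1*, *EGR1* and *JUN* had LFC values of 2.24, 2.15, 1.81 and 1.62. *FOXO3*, which is known to act on *BCL2L11* and *BBC3*, had an LFC of 0.47, while *FOXO4* had -0.36.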

How the data were processed

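Poly(A) RNA of 20 samples was sequenced from stranded libraries. Per the labels, the authors ran kallisto 0.42.4 on GRCh38 and deposited, for 198968 transcripts per sample, estimated counts (not normalized), effective lengths and TPM (scaled by effective length and library size by the authors' tool). Here transcripts were matched by Ensembl identifier to GENCODE 44 (191106 matched, 96.05%; 7862 left out), and estimated counts were summed per gene and rounded. Matched transcripts held 96.66 to 96.78% of counts in vehicle and 95.71 to 95.95% in nutlin samples. mRNAs and lncRNAs that had 1 count or more in both conditions were tested with edgeR 4.0.16 (R 4.3.3; quasi-likelihood, TMM, condition only, Benjamini-Hochberg, 5% FDR). Transcripts were fitted likewise. The SE was approximated as the absolute LFC divided by the square root of F. CPM are TMM-normalized. Shares and log2 ratios (pseudocount 0.5) were compared by permutation tests (scipy 1.17.1, 100000 resamples). TPM was used for levels between genes and, as an alternative to counts, in shares and ratios. No gene was fitted on TPM. Alternatives were DESeq2 1.42.0 and its size factors, limma voom 3.58.1, filterByExpr (minimum count 10) or no filter, an effective length offset, the replicate number as a block, 1% FDR, a pseudocount of 1, TPM in place of counts and, added after seeing the data, leaving out each of the 20 samples. The genes and lists were chosen with earlier results of these data known; list genes were named by the largest LFC among those called and by role. P-values measure the spread between these cultures of a single line. Some genes of the lists are not reported here.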

Additional observations from a re-analysis of the deposited data

Results flagged for a closer look

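In 10 of 76 groups of 10 values (levels, shares and ratios of the pro-apoptotic genes within a condition), the most extreme sample stood apart from the others by more than Dixon's criterion of 0.466 of the range. About 5% of groups are flagged by chance, and shares of a single gene are not independent of each other.

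For *PMAIP1*, vehicle replicate 11 held 14.5% of the counts on PMAIP1-201, where the other vehicle samples held 29.6 to 38.4%, and 84.6% on PMAIP1-202, against 58.9 to 69.8%. Nutlin replicate 8 moved the same way, with 22.5% on PMAIP1-201 (others 33.0 to 44.03%) and 67.1% on PMAIP1-202 (others 46.3 to 57.2%). The level of the gene stood out in nutlin replicate 4, at 36.5 CPM against 43.3 to 49.5 CPM.

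Nutlin replicate 1 held 6.14% of *BCL2L11* on BCL2L11-204, where the other nutlin samples held 75.9 to 93.7%, and its log2 ratio of *BCL2L11* to *BCL2* was -5.31, against -3.75 to -2.03. In that sample the gene had 17.6 estimated read pairs in all.

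In vehicle replicate 5, BAX-206 held 5.59% of *BAX*, against 7.15 to 8.91%. For *BID*, BID-203 held 7.70% in vehicle replicate 11 (others 12.9 to 17.9%) and BID-211 held 15.0% in vehicle replicate 7 (others 33.4 to 51.7%).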

How the results depend on the processing

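The counts of genes, transcripts, shares and ratios called stayed within 1.5 times under every alternative run. *BBC3*, *PMAIP1*, *BAX*, *BAK1*, *BID*, *BCL2L11*, *BAD* and *HRK* were called in the same direction in every alternative fit of genes. So was *BIK*, except that filterByExpr did not test it. All these fits used counts, so the calls of genes were not tested in TPM, where *BCL2L11* overlapped almost wholly between the conditions. With shares of TPM, the differences (nutlin minus vehicle, in percentage points) of BAD-203 and BMF-201 reversed to -0.53 and -6.81, and that of BMF-202 passed at -40.8. With TPM in the ratio, the *BCL2L11* to *BCL2* difference reversed to 0.23 (adjusted p = 0.184, permutation test). Leaving out each sample in turn, the differences not called ranged from -0.79 to 8.38 points for BBC3-203, -0.86 to 0.71 for BBC3-205, -1.08 to 1.32 for HRK-201 and -0.16 to 1.47 for BAD-203. BAD-201 ranged from -10.4 to -7.24 over the 20 refits and lost its call in 7 of them, and BID-203 ranged from -4.70 to -3.06 and lost its call in 11. BAX-202 gained a call in 3, and BBC3-206, PMAIP1-201 and the level of *BMF* (LFC 0.36) in 1 each.

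Of the replicate numbers, 8 occur in both conditions. The correlation of deviations in same-numbered samples was between -0.0778 and 0.0951 over 15168 genes, none over 0.1, so no shared deviation was seen. Whether same-numbered cultures were handled together is not given in the labels. With the replicate block over these 16 samples, 6 of the 10 genes were called higher and 3 lower as before, all genes called numbered 14315 (15113 without the block), the shares of BBC3-202, BID-208 and HRK-201 reversed to -1.12, 0.27 and -1.30, and BAD-201 did not pass at -8.59. Depth was lowest for *BIK*, with 1 to 13 read pairs per sample. The cause of these changes was not tested.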
